A study of Populus yunnanensis with 9 samples.

Results

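The genes described here were lower in leaves of poplar given cadmium and nitrogen together than in untreated leaves and in leaves given cadmium alone, while cadmium alone left their mean levels close to those of untreated leaves. They were chosen by their measured levels in all 9 libraries, as TMM-normalized CPM, which are reads scaled to one common library size with a factor that evens out differences in composition between libraries. A gene had to have a mean of at least 1 CPM, every value under cadmium with nitrogen had to be below every value of the other groups, and the mean of each of those groups had to be at least 1.5 times the mean under cadmium with nitrogen. The ratio of the mean under cadmium to the mean in untreated leaves had to be between 0.8 and the inverse of 0.8. Of the 41335 genes in the files, 23384 had a mean of at least 1 CPM and 219 met all conditions. The 200 with the largest smaller one of the ratios were kept, and these are called members below. As every comparison between the groups entered the choice, the differences between groups are given as a description. Calls by tests are printed further below, and nothing is read from the members' counts there.

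Yunnan poplar (Populus yunnanensis) was grown from cuttings in soil, and the plants were 4-month seedlings by the labels. The control set (Ck) received no addition. The second set (Cd) received cadmium chloride every 5 d, 40 mg Cd per kg dry soil each time, up to 480 mg per kg. The third set (Cd_N) received the same cadmium with ammonium bicarbonate, 30 mg N per kg each time, up to 360 mg per kg. After 60 d the fourth to sixth leaves from the apex were taken, and RNA from 3 samples per group was sequenced. No group received nitrogen without cadmium, so an effect of nitrogen that needs cadmium and one that does not cannot be told apart. The labels do not say which pots, plants or parent trees a library stands for, nor what libraries of different groups with the same replicate number share, and differences between libraries of a group may be technical.

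Nitrogen is taken up by roots as ammonium or nitrate and built into amino acids, and its supply sets much of a leaf's protein and chlorophyll content. Plants respond to added nitrogen both by inducing genes for its use and by repressing genes for scavenging and recycling it. Cadmium is a non-essential metal that binds thiols, displaces other metals and disturbs photosynthesis and redox balance, and plants bind it with glutathione-derived peptides and store it in vacuoles. The files list genes by identifier alone and do not pair identifiers with names, and no annotation was used here. The members therefore cannot be sorted by role, and leaf marker genes could not be looked up to check the labelled tissue. By the poplar naming scheme, the number after "Potri" is the chromosome and the number after G is the gene's order along it. Identifiers are given for 2 members, the first by each rule for naming genes, and other members are described by chromosome, length or rank.

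The libraries held from 31952278 to 40101176 reads on genes. In root mean square distance over log2 CPM, Cd replicate 1 lay farthest from its own group, at 1.13 on average, and was nearest to Ck replicate 1. Ck replicate 2 was nearest to Cd_N replicate 3, while the remaining 7 had their nearest neighbour within the group. Without Cd replicate 1, 165 genes met the conditions, and 128 of the 200 members were among them.

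All members had reads in every library, and their median count per library ran from 165 in Cd_N replicate 2 to 522.5 in Ck replicate 1. Their TMM-normalized levels were summed and expressed as a percentage of the library total times its TMM factor. This was 1.03% ± 0.258 in Ck, 0.991% ± 0.260 in Cd and 0.473% ± 0.140 in Cd_N (SD, n = 3 each). With all members, this summed level was highest in Cd replicate 1, at 1.27%, and lowest in Cd_N replicate 2, at 0.315%. In Ck replicate 2 it was 0.746% and in Cd replicate 2 it was 0.751%, against 0.579% in Cd_N replicate 1, the highest of its group. As a share of the reads on genes, without TMM factors, Ck replicate 1 was highest, at 1.19%, beside 1.16% in Cd replicate 1. That share was 0.717% in Ck replicate 2, 0.812% in Cd replicate 2 and 0.576% in Cd_N replicate 1. Without the member with the most reads, the summed level was 0.771% ± 0.173 in Ck, 0.730% ± 0.122 in Cd and 0.375% ± 0.0893 in Cd_N. Ck replicate 1 was then highest, at 9177 CPM, beside 8526 CPM in Cd replicate 1. The summed levels of Cd_N and the other groups did not overlap, which the rule fixes gene by gene. In whole leaves, fewer cells of a type and less RNA per cell cannot be told apart.

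Most members differed by about 2-fold. The median ratio of Ck to Cd_N was 2.0, with quartiles of 1.75 and 2.49 and the highest at 34.1. The median ratio of Cd to Cd_N was 1.96, from 1.55 to 30.7. On the log2 scale the medians were -1.00 for Cd_N against Ck and -0.97 for Cd_N against Cd, beside -0.01 and -0.03 over genes of at least 1 CPM. Both ratios reached 2 in 76 members, 3 in 22, 5 in 7 and 10 in 3. The difference was thus mostly a partial lowering, and the members near zero were few.

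**Figure D1:**
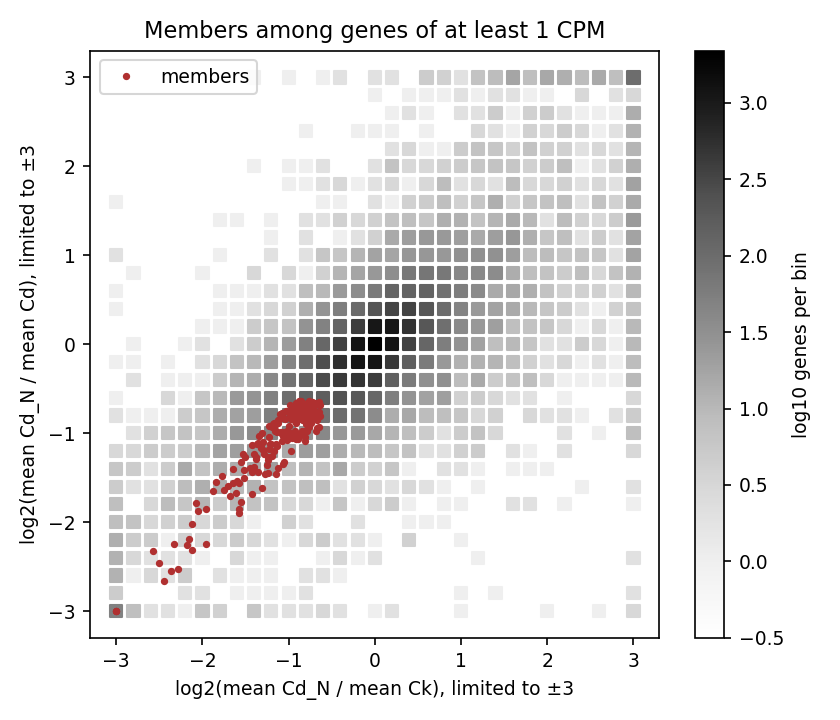
Log2 ratio of mean Cd_N to mean Ck (x axis) and to mean Cd (y axis), both limited to ±3, for genes of at least 1 CPM (grey squares, darker for more genes per bin) and the 200 members (red). The members lie along the lower left diagonal because the rule asks for both ratios and a similar level in Ck and Cd, and most sit near -1 on both axes.

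Potri.004G085400.v3.0, on chromosome 4, took more reads than any other member. It had 3259, 1660 and 2982 CPM in Ck replicates 1, 2 and 3 and 4148, 1413 and 2251 CPM in Cd. In Cd_N it had 1276, 383 and 1290 CPM. The lowest library outside Cd_N, Cd replicate 2, was 1.095 times the highest Cd_N library, so the groups were parted by a narrow gap. The means were 2634 ± 854 CPM in Ck, 2604 ± 1401 in Cd and 983 ± 519 in Cd_N (SD, n = 3 each), which is 2.68-fold and 2.65-fold lower in Cd_N. In each group the replicate numbered 2 had the lowest value. Per length, its mean over all libraries was 722 FPKM, second among members to a gene with a recovered length of 444 bases on the same chromosome, at 1494 FPKM.

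Potri.009G125900.v3.0, on chromosome 9 and with a recovered length of 441 bases, led the members of at least 5 CPM by the smaller of its ratios. It had 10.7, 5.46 and 7.04 CPM in Ck and 8.92, 4.94 and 13.5 CPM in Cd. In Cd_N it had 2.34, 0.756 and 1.66 CPM. The gap was wide here, with the lowest other library at 2.11 times the highest of Cd_N. The means were 7.74 ± 2.70, 9.12 ± 4.29 and 1.59 ± 0.796 CPM in Ck, Cd and Cd_N (SD, n = 3 each), so that Ck was 4.88 times and Cd 5.75 times Cd_N. Here too replicate 2 was the lowest of each group.

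**Figure D2:**
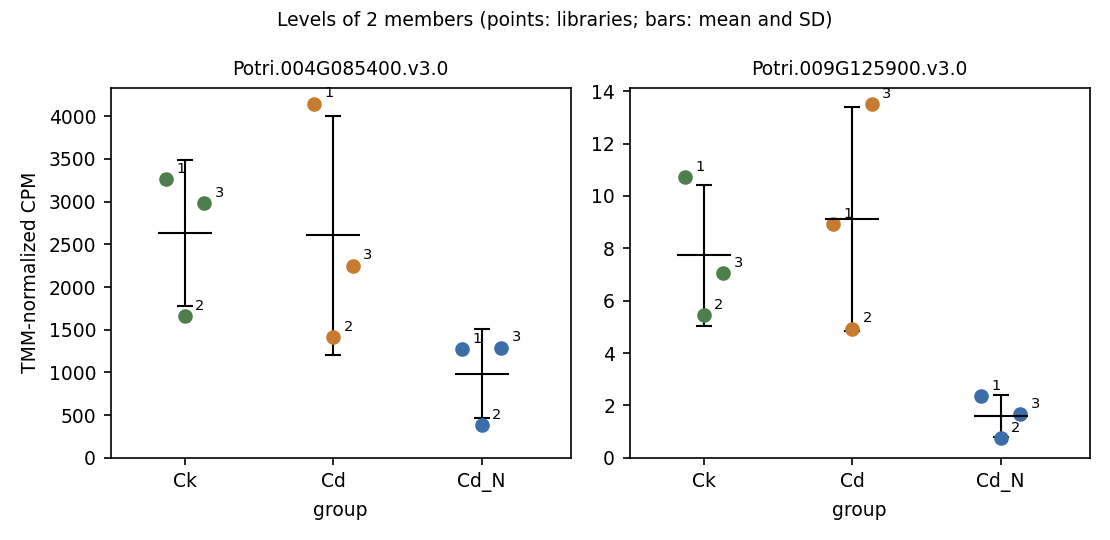
TMM-normalized CPM (y axis, from 0) of the member with the most reads (left) and of the leading member by ratio among those of at least 5 CPM (right) in Ck, Cd and Cd_N. Points are libraries with their replicate number and bars are mean and SD; the point numbered 2 is the lowest in every group of both genes.

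Second to it by ratio among members of at least 5 CPM was a gene on chromosome 16 with a recovered length of 495 bases. Its Ck libraries had 43.0, 18.8 and 27.7 CPM and its Cd libraries 41.1, 22.7 and 20.2 CPM, against 4.86, 5.10 and 7.76 CPM in Cd_N. All Cd_N values were far below the rest, the lowest other library being 2.42 times the highest of Cd_N. A further gene of the 15 leading ones by ratio, on chromosome 1 and with a recovered length of 2577 bases, had 145, 49.4 and 132 CPM in Ck, 172, 36.4 and 95.1 CPM in Cd and 30.5, 20.5 and 24.0 CPM in Cd_N. In this gene Cd alone spanned more than the distance from its lowest library to the Cd_N values.

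The largest ratios were in genes with few reads. A member on chromosome 19 had 353, 18 and 156 reads in Ck, 82, 128 and 253 in Cd, and 7, 1 and 7 in Cd_N. From the summed reads it was 36.3 times as high in Ck as in Cd_N (95% interval 21.8 to 65.3) and 32.0 times as high in Cd (19.2 to 57.7). A second, on chromosome 9, had 120, 12 and 69 reads in Ck, 51, 35 and 102 in Cd, and 3, 2 and 4 in Cd_N, with ratios of 23.1 (11.9 to 51.2) and 21.7 (11.2 to 48.2). These exact intervals cover counting error alone, and in both genes the library of Ck replicate 2 was itself far below the other Ck libraries. Over all members, 68 had a mean under 5 CPM and 12 had 100 CPM or more.

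Among the 10 members with the most reads, the ratios were lower, from 1.57 to 2.65 for the smaller of each pair. The one with the highest FPKM, the gene of 444 bases on chromosome 4, had 1056, 530 and 1010 CPM in Ck and 910, 586 and 848 CPM in Cd. In Cd_N it had 503, 172 and 368 CPM, so Ck replicate 2 was barely above Cd_N replicate 1. A long gene on chromosome 3, with a recovered length of 23070 bases, varied less, with 321, 213 and 253 CPM in Ck, 283, 237 and 264 CPM in Cd and 193, 137 and 171 CPM in Cd_N. Its ratios to Cd_N were 1.57 for both groups.

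Cadmium alone made little difference to the members, as the rule required. The median ratio of Cd to Ck was 0.966, and 115 members were between 0.9 and about its inverse. Cd was below Ck on average in 123 members and above it in 77, and the libraries of the groups overlapped in 198. They did not overlap in 14.8% of genes of at least 1 CPM, and as the rule kept the ratio near 1, nothing is read from the members' count. The other 2 members, chosen after their values were seen, had every Cd library above every Ck library. One, on chromosome 6, had 148, 105 and 165 CPM in Ck and 168, 165 and 172 CPM in Cd, before 99.1, 47.5 and 92.1 CPM in Cd_N. The condition on Cd over Ck marks no natural border. Without it 378 genes passed, 126 of them with a lower ratio of Cd to Ck than the band allows and 33 with a higher one.

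The members nearest the limits were close to genes left out. The last member kept had a smaller ratio of 1.55 and the first one dropped 1.54, while the last of the 219 was at 1.503. Cd over Ck was 0.801 in the lowest member, beside 0.799 in a gene outside, and 1.248 in the highest, beside 1.252 outside. The member with the lowest mean had 1.05 CPM, and the nearest gene outside 0.977 CPM. The lowest library of Ck and Cd was less than 1.1 times the highest Cd_N library in 81 members and at least 1.5 times in 22. All 3 Cd_N libraries were below all others in 3.3% of genes of at least 1 CPM, a condition that every member meets by choice.

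Within each group the members tended to share the order of their libraries. The rule set no such order, but the order and the spread below were read from the values that chose the members. Both are therefore descriptions, and how far the choice favoured them was not tested. The replicate numbered 2 was the lowest of its group in 165 members in Ck (82.5%), 115 in Cd (57.5%) and 133 in Cd_N (66.5%). Over genes of at least 1 CPM the same libraries were lowest in 37.8%, 32.4% and 44.2%. It was lowest in all 3 groups at once in 77 members (38.5%), against 13.1% of all these genes, and replicate 1 was highest in all 3 groups in 45 (22.5%) against 7.398%. No member had replicate 2 highest in all 3 groups, against 13.9% of all. The members also varied more within groups, with a median coefficient of variation of 24.8% in Ck, 22.5% in Cd and 22.9% in Cd_N, beside 15.4%, 18.4% and 18.6% over all genes of at least 1 CPM. Their median level was lower, at 9.53 CPM beside 16.8 CPM, and the comparison was not matched for level. What the replicate numbers share is not stated, and their part in the choice of members was not tested.

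**Figure D3:**
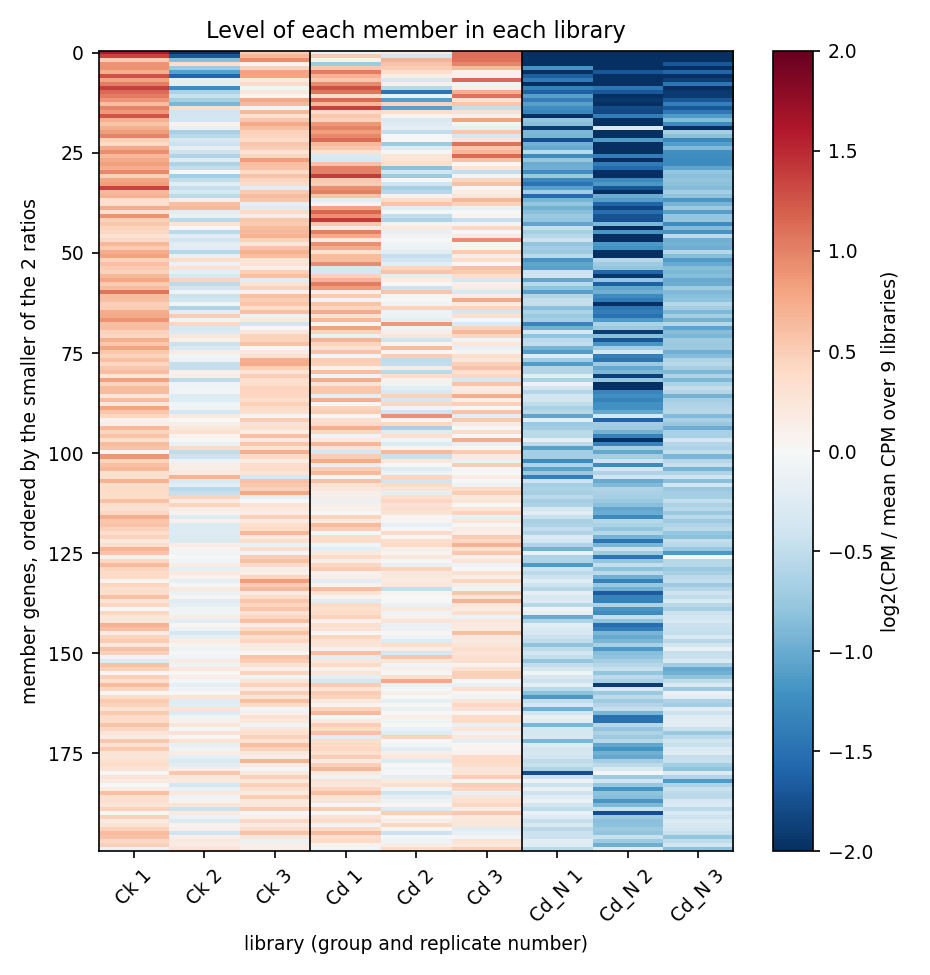
Level of each of the 200 members (rows, ordered by the smaller ratio) in each library (columns, by group and replicate number), as log2 of CPM over the member's mean in all 9 libraries, with colours limited to ±2. The Cd_N columns are low in all rows by choice, and replicate 2 is paler than replicates 1 and 3 in Ck and darkest in Cd_N.

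Because the libraries numbered 2 were low, they set the gap for many members. Ck replicate 2 was the lowest of the 6 Ck and Cd libraries in 87 members (43.5%) and Cd replicate 2 in 60 (30%), beside 17.6% and 21.3% of genes of at least 1 CPM. Cd_N replicate 1 was the highest of its group in 114 members (57%), beside 33.2% of genes of at least 1 CPM. Relative to each member's own mean, the median log2 level was 0.48, -0.10 and 0.38 in Ck replicates 1, 2 and 3 and -0.60, -1.03 and -0.69 in Cd_N. Between libraries with the same number the lowering is a description too, since these libraries chose the members. The median log2 ratio of Cd_N to Ck was -1.07, -1.01 and -1.06 for numbers 1, 2 and 3, and that of Cd_N to Cd was -0.98, -1.11 and -0.92. Over all genes of at least 1 CPM these medians were from -0.03 to 0.01. Cd_N was at least 1.5-fold below both same-numbered libraries in 146, 146 and 147 of the 200 members, beside 10.2%, 10.2% and 6.34% of all these genes.

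**Figure D4:**
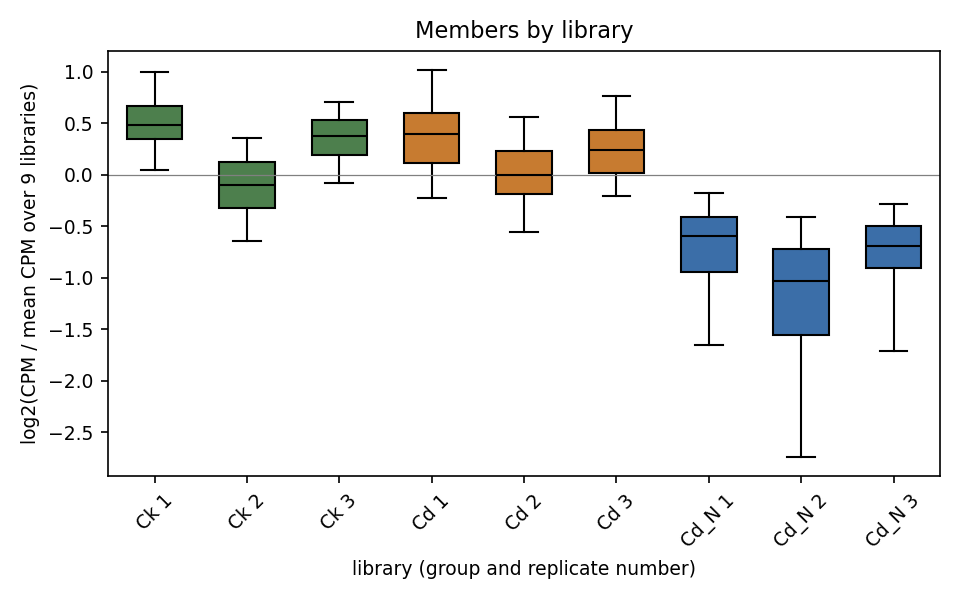
Log2 of CPM over each member's mean in all 9 libraries (y axis) for the 200 members in each library (x axis). Boxes are quartiles with the median and whiskers run from the 5th to the 95th percentile; the box of replicate 2 is the lowest in each of the 3 groups.

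The rule was repeated with each library left out, and the absent library was then read for the genes so chosen. Of the genes chosen without Ck replicate 1, 98.2% (224 of 228) were above all Cd_N libraries in it, and 94.6% (211 of 223) were for Ck replicate 3. The shares were 89.1% and 88.3% for Cd replicates 1 and 3. They were lower for the libraries numbered 2, at 53.2% (175 of 329) for Ck and 51.8% (240 of 463) for Cd. Over all genes of at least 1 CPM the shares ran from 27.3% to 32.2%. The Cd_N libraries, which had to be below 6 others, were so in 48.4% (237 of 490), 66.5% (177 of 266) and 73.8% (234 of 317) of the genes chosen without replicates 1, 2 and 3, against 12.01%, 28.2% and 13.3% of all genes. The absent library was thus on the same side for 48.4% to 98.2% of the genes. As it was read against libraries that had themselves been chosen as low or high, a share above that of all genes follows in part from the choice, and the share of all genes is not the value for no change.

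**Figure D5:**
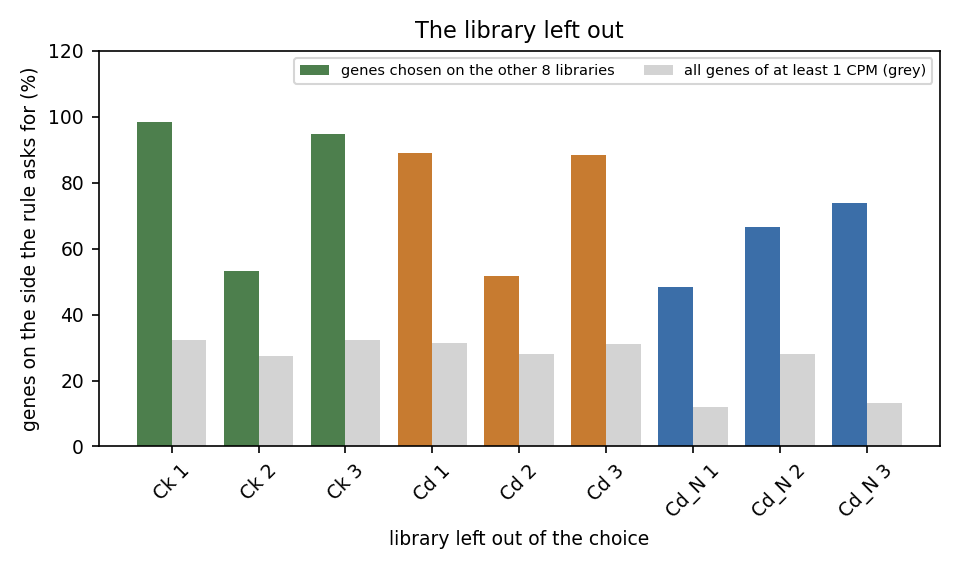
Share of genes (y axis, %) for which the library left out of the choice (x axis) was on the side the rule asks for: above all Cd_N libraries for Ck and Cd, and below all Ck and Cd libraries for Cd_N. Coloured bars are genes chosen on the other 8 libraries and grey bars all genes of at least 1 CPM; the coloured bar is shortest for Cd_N replicate 1 and short for both libraries numbered 2 of Ck and Cd. The libraries it was read against had chosen the genes, which raises the coloured bars over the grey ones.

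With 1 library left out, the median ratio between it and the mean of the libraries on the other side moved both ways. It was 2.34 for Ck replicate 1 and 2.10 for Ck replicate 3, beside 1.92 and 1.99 in the kept libraries of the group. For every other library it was lower than in the kept ones, down to 1.26 beside 1.92 for Cd replicate 2. With all 3 libraries of a number left out, 374, 657 and 372 genes were chosen for numbers 1, 2 and 3. In the absent libraries Cd_N was below both Ck and Cd in 78.9%, 67.0% and 79.6% of them, beside 38.5%, 37.7% and 33.3% of all genes of at least 1 CPM. The median ratio of the lower of Ck and Cd to Cd_N was 1.33, 1.32 and 1.39 there. It reached 1.5, the limit of the rule, in 36.1%, 39.9% and 40.6% of the chosen genes and in 10.2%, 10.2% and 6.34% of all. The ratios given above for the members were read from the libraries that chose them. Those ratios compare group means and these compare single libraries in other sets of genes, so their sizes are not on one measure.

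Turned to the other groups, the same conditions gave 207 genes that were higher in Cd_N alone. They gave 151 genes lower and 129 higher in Ck alone, and 86 lower and 76 higher in Cd alone. The number for genes lower in Cd_N, 219, was the largest of the 6 with the condition on the ratio between the remaining groups. Without that condition it was 378, below the 582 genes higher in Cd_N and the 405 lower in Ck. Without Cd replicate 1 the order changed, as the conditions then gave 165 genes lower and 238 higher in Cd_N alone, 361 and 491 in Ck alone, and 364 and 422 in Cd alone. Fewer libraries then had to be parted, the means of Cd changed, and in the turn to Cd the group standing apart was itself smaller. The number for genes lower in Cd_N alone fell from 219 to 165, and why it fell was not tested. These counts are therefore not on equal terms.

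The members were somewhat shorter and less represented among long genes. Lengths recovered from counts and FPKM had a median of 1467 bases in members, 1926 in genes of at least 1 CPM and 1742 in the 200 leading genes higher in Cd_N alone. With genes of at least 1 CPM divided by length into 5 bins of nearly equal number, members made up 0.983%, 1.18%, 0.940%, 0.707% and 0.471% from the shortest bin to the longest. The median log2 ratio of Cd_N to Ck over all genes moved little across the same bins, between -0.03 and 0.01. Genes with few reads held more members, with 1.27% of genes of 1 to 5 CPM, 0.927% from 5 to 20 CPM, 0.587% from 20 to 100 CPM and 0.636% above. Per length, members had a median of 5.75 FPKM beside 7.79 FPKM over genes of at least 1 CPM. All 34971 recovered lengths were multiples of 3, and the longest reached 176595 bases, so what they measure was not established.

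Members came from all 19 chromosomes, and 3 were on unplaced scaffolds. They made up 0.855% of genes of at least 1 CPM. The share was 1.94% on chromosome 16, with 16 members, and 1.56% on chromosome 4, with 20, while on chromosome 2 it was 0.376%, with 6. Of the 197 on chromosomes, 16 lay within 5 gene positions of another member, by the order of the identifiers, against 23 of the 196 leading genes higher in Cd_N alone that were on chromosomes. Within 1 position the numbers were 6 and 0, and within 10 they were 32 and 37, so the order of the lists depended on the window. Directly adjacent members numbered 6, in 3 pairs, of which 1 was on chromosome 4 and 2 on chromosome 6.

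In the pair with the strongest lowering, on chromosome 6, the first gene had 19.0, 8.60 and 20.5 CPM in Ck, 36.1, 8.27 and 13.1 CPM in Cd, and 8.17, 2.0 and 7.69 CPM in Cd_N. The second had 23.6, 22.2 and 11.8 CPM in Ck, 24.5, 12.2 and 12.8 CPM in Cd, and 7.32, 3.97 and 8.41 CPM in Cd_N. They shared the low Cd_N levels and the high Cd replicate 1, but in Ck replicate 2 the first was low and the second was not. Genes of at least 1 CPM next to a member and not members themselves had all 3 Cd_N libraries lowest in 12 of 233 cases (5.15%), beside 2.47% of all genes outside the members. As the strand setting of the counting is not given in the sources used here, reads of overlapping neighbours cannot be told apart.

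With edgeR's quasi-likelihood test over all 27378 genes past the filter on low counts, 4 of the 200 members, all of which passed that filter, were called lower in Cd_N than in Ck at an adjusted p under 0.05. The share called lower among all genes tested was 0.0657%. Since this contrast chose the members, nothing is read from the members' count. With the replicate number as a block it was 79, beside 2.31% of all genes, and by DESeq2 118, beside 2.57% of the genes to which it gave a p. The 4 were 0 without Ck replicate 1 or 3, Cd replicate 2 or 3, or any 1 of the Cd_N libraries, 7 without Ck replicate 2 and 24 without Cd replicate 1. Shares of all genes called in these refits are not given here, so nothing is read from how the 4 moved. At an unadjusted p under 0.05 there were 187 members, beside 7.61% of all genes.

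Against Cd, 0 members were called lower in Cd_N by edgeR, beside 0% of all genes, and 188 had an unadjusted p under 0.05, beside 5.69%. DESeq2 called 84, beside 1.09%. This contrast chose the members too, so nothing is read from these counts of members. For Cd against Ck, edgeR called 0 members in either direction, beside 0% of all genes, with 0 members at an unadjusted p under 0.05, beside 9.88%. DESeq2 likewise called 0, beside 1.79%. The rule kept this ratio near 1, so these last counts describe the choice.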

How the data were processed

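Libraries were made with an Illumina TruSeq kit from total RNA of leaves, 3 per group. The labels name Bowtie2 2.0.6 and TopHat2 2.0.12, and the counting tool, annotation and strand setting are not given in the sources used here. Unnormalized read counts per gene were deposited. FPKM values were deposited too, and these equalled the count scaled to 1 length per gene and the library total within a relative tolerance of 1e-06, and the lengths were recovered from this relation. Reads of paralogs or overlapping genes may have been split in ways that are not known. The sample labels gave the groups and replicate numbers.

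The members and lists were chosen with earlier results of these data known. The counts were fitted in edgeR 4.0.16 under R 4.3.3 (TMM factors from all genes for the rule, and from the 27378 genes past filterByExpr, with a minimum count of 10 and total of 15, for the quasi-likelihood fit on 9 libraries), limma 3.58.1 and DESeq2 1.42.0. Calls were made at a Benjamini-Hochberg adjusted p under 0.05. Log2 CPM for distances had a prior count of 2. The code was tested on simulated data. Deviations from group means of same-numbered libraries correlated over 0.1 in all 3 pairs of Ck and Cd_N (0.115 to 0.323), so the block is given beside the main calls for that comparison. Pairs of different number ran from -0.334 to 0.272 there, the highest being Ck replicate 3 with Cd_N replicate 1. Passing 0.1 therefore does not establish that a number marks something shared. The same-numbered correlation was over 0.1 in 2 of 3 pairs in each other comparison, where the block was run as an alternative setting alone.

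Genes to name were the 15 members with the largest smaller ratio among those of at least 5 CPM and the 10 with the highest mean CPM, from which the first of each is given by identifier. Lists by gene description, marker lists and promoter motifs had been planned and were not run, as no annotation or sequence was used here. Alternatives were other scalings, filters, fold limits and bands for the rule, other fits for the calls (limma on log2(FPKM + 1), or with 0.1 as the pseudocount, for genes that reached an FPKM of 1 in 3 or more libraries), and leaving out libraries. TMM factors from filtered genes and leaving out all libraries of a number were added after the data were seen. The proteome and phosphoproteome were not analysed here.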

Additional observations from a re-analysis of the deposited data

How the results depend on the processing

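The 219 genes that met the rule became 201 with upper-quartile factors, 212 with DESeq2 size factors, 217 with the total count alone and 210 with TMM factors from filtered genes, and 183, 195, 161 and 193 of the 200 members were among them. They were 76 with a 2-fold limit and 124 with Cd over Ck from 0.9 to about its inverse. With 1 library left out the number ran from 165 to 490, the lowest without Cd replicate 1 and the highest without Cd_N replicate 1, and it was 329 when Ck replicate 2 and 463 when Cd replicate 2 was left out. It was 374, 657 and 372 with a whole replicate number (1, 2 or 3) left out, where fewer libraries have to be parted. The 4 members called lower against Ck were 118 by DESeq2, 79 with the replicate block, 7 with limma on log2(FPKM + 1) or log2(FPKM + 0.1), with 191 members past its filter, 2 without that filter, 2 in edgeR on unfiltered genes, 1 when the fit held the 2 groups alone, and from 0 to 24 with 1 library left out. The 0 against Cd were 84 by DESeq2, 2 with limma on log2(FPKM + 1), 25 with the replicate block (0.387% of all genes) and from 0 to 2 with 1 library left out, the 2 being without Ck replicate 2. The 0 for Cd against Ck held in every setting run. Of the 16 members near another, 6 remained within 1 gene position, and there were 32 within 10. In 25 members, 600 log2 fold changes against Ck or Cd under other settings included 0 that turned direction, which the choice of members nearly fixes. For limma, edgeR on unfiltered genes, the fit of 2 groups and the fits with 1 library left out, shares over all genes are not given. Nothing is therefore read from those counts of members. What lay behind these shifts, the cause, was not tested. Each Cd_N library had from 3 to 6 members with under 10 reads, and there the size of the ratio is uncertain.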

Other observations

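The 200 leading genes that were higher in Cd_N alone, chosen by the same rule turned around, had the opposite order of replicates. This order too was read from the values that chose the genes. The library numbered 2 was the highest of its group in 139 of them in Ck, 105 in Cd and 128 in Cd_N. Over genes of at least 1 CPM the same libraries were highest in 40.4%, 36.0% and 40.1%. Replicate 2 was highest in all 3 groups in 70 (35%), against 13.9% of genes of at least 1 CPM. Replicate 1 was lowest in all 3 groups in 33 (16.5%), against 5.80%. Their smaller ratios had a median of 2.09 and reached 51.0, and 52 of the 200 were at least 3-fold, beside 22 of the 200 genes lower in Cd_N. What the numbers share is not stated in the labels, and its part in either set was not tested.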
